A study of Mus musculus with 15 samples.

Results

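The Rab GTPases were examined in RNA-seq of whole mouse pituitary glands that lacked an enhancer of Nr5a1 (PE, for pituitary enhancer) on one chromosome (PE+/-) or on both (PE-/-). Nr5a1 encodes a nuclear receptor that gonadotropes need. A gene was taken as a member if its symbol was Rab followed by a number and at most a letter and a further digit, with 1 row of the count table per symbol, which gave 59 genes of 55523 rows. The 15 libraries comprised 4 of PE+/- males, 4 of PE-/- males, 4 of PE+/- females and 3 of PE-/- females. Every mouse thus lacked the enhancer on at least one chromosome, PE+/- mice served as the controls, and no wild-type gland was compared. The deletion was made by CRISPR/Cas9 in the genome of the mouse and was not limited to a cell type. The age of these mice was not given in the sources used here. Library totals ran from 12982794 to 30238443 counts, where about 4 counts were taken to stand for 1 fragment.

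Rab proteins are small GTPases that mark the membranes of a cell. Bound to GTP, each recruits effector proteins that move, tether or dock a vesicle at its target membrane, and exchange factors and GTPase activating proteins switch it on and off. In the pituitary, hormones are stored in dense-core granules, and the Rab3 and Rab27 proteins sit on such granules and act in their docking and release. By their best known place of action, 16 of the 59 genes were put in the group of the ER and Golgi, 13 in recycling and delivery to the surface, 8 in granule exocytosis, 8 in the late endosome, lysosome and related organelles, 7 in the early endosome and 7 in a remainder.

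The results below turn on a pair of Rab3 genes that moved in opposite directions in females, so the coding sequences show how far reads can tell such relatives apart. Coding stretches of 45 bases around the conserved switch region of the GTPase fold are given from GENCODE M21 transcripts, and capitals mark the codons of the stretch that 49 of the 59 Rab genes share at the protein level. For Rab3a, Rab3b and Rab3d they lie at bases 214 to 258 of the coding sequence, for Rab3c at 238 to 282, and for the late endosomal relatives Rab9 and Rab9b at 169 to 213.
Rab3a: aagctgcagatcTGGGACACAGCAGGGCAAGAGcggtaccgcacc
Rab3b: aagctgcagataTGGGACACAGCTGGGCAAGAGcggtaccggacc
Rab3c: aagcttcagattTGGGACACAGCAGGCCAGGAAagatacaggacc
Rab3d: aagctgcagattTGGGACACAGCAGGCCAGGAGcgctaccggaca
Rab9: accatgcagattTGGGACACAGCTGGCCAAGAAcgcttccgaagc
Rab9b: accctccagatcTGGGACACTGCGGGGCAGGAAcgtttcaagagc

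The 6 genes differed in their codons even within the capitals. Over the whole aligned coding sequence Rab3b and Rab3d were identical at 78.0% of bases, with a longest shared run of 33 bases, and the other pairs of Rab3 genes at 74.4% to 76.8%. Rab9 and Rab9b were identical at 69.1%, with a longest shared run of 13 bases. Of 20 pairs of related Rab genes compared, Rab1a and Rab1b had the longest shared run, 38 bases. All 59 coding sequences held a cysteine codon within the last 5 residues, the place where Rab proteins receive their lipid anchor.

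Rab3d lies on chr9:21907491-21918192 (minus strand), Rab3b on chr4:108879063-108943324 (plus strand) and Rab9b on chrX:136858147-136868755 (minus strand), all on mm10. The promoters of Rab3d and Rab3b are shown because one gene fell and the other rose in PE-/- females. They are the 250 bases before the RefSeq start on GRCm38.p6, at chr9:21918184-21918433 for Rab3d and chr4:108878820-108879069 for Rab3b, on the strand of the gene. Capitals mark matches, on either strand, to the GC box GGGCGG or to TATAAA.
Rab3d: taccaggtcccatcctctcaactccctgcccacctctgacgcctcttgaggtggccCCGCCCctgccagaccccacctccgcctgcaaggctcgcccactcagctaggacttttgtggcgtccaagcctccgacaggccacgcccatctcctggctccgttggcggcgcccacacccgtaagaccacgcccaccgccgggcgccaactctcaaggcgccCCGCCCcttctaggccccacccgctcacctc
Rab3b: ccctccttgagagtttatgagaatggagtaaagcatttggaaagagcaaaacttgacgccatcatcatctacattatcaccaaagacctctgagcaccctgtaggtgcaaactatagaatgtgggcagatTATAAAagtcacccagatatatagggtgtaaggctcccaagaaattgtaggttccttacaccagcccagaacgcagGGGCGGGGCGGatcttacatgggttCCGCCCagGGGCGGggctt

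The Rab3d window had 69.2% G and C, 2 GC boxes and no TATAAA. The Rab3b window had 48.8% G and C, 4 GC boxes, of which a pair stand end to end with a shared base, and 1 TATAAA. Over the 60 promoter windows that RefSeq lists for 48 of the 59 genes, the GC box was found in 66.7%, against 32.7% of all 32851 windows of the same length. CCAAT was found in 40% against 33.8%, CACGTG in 8.33% against 6.02%, TGACGTCA in 3.33% against 1.55% and TATAAA in 6.67% against 12.4%. CAAGGTCA, a sequence that NR5A1 binds, was found in 0 of the 60 windows against 1.33% of all.

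Across the gland the Rab genes covered a wide range of levels. Levels are given as CPM, the counts scaled to the size of the library with TMM factors, and, between genes, as CPM per kb of annotated exon, on which scale the median Rab gene stood at 12.05. Rab7, which drives fusion of late endosomes with lysosomes, was highest at 242.6 ± 19.1 CPM per kb (SD, n = 15 libraries). Rab11a of recycling endosomes followed at 124.5 ± 22.6, and Rab1a of transport from the ER to the Golgi at 100.6 ± 38.6. Rab1b, its close relative, stood at 96.88 ± 99.02, Rab5b of early endosomes at 70.8 ± 5.84 and Rab2a, which acts between ER and Golgi, at 63.8 ± 3.13. These 6 genes held 44.0% of the summed CPM per kb of all 59.

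The order of levels was firm only in a few places. Of 58 neighbouring pairs in the order by CPM per kb, 3 had ranges of 1 SD that did not overlap. By role, the ER and Golgi group held 28.7% of the summed CPM per kb, recycling and delivery to the surface 26.0%, late endosome and lysosome 19.0%, granule exocytosis 11.8%, early endosome 9.47% and the remainder 5.01%. Within granule exocytosis Rab3d led at 58.9 ± 21.6 CPM per kb, which ranked it 8 of 59, and Rab3b stood at 43.6 ± 16.5. Rab37, best known from mast cells and islets, was the lowest of the 56 genes tested in every comparison, at 0.31 ± 0.14 CPM per kb. Lower still were Rab33a, Rab43 and Rab44, each under 1 CPM on average. Rab43, per kb the lowest gene tested in any comparison, was at 0.09 to 1.09 CPM, and Rab33a at 0 to 0.67 CPM. Rab44 was at 0 in all 8 libraries of males, at 0.75 and 3.48 CPM in PE+/- females 2 and 3 and at 0.25 CPM in PE-/- female 2.

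**Figure D1:**
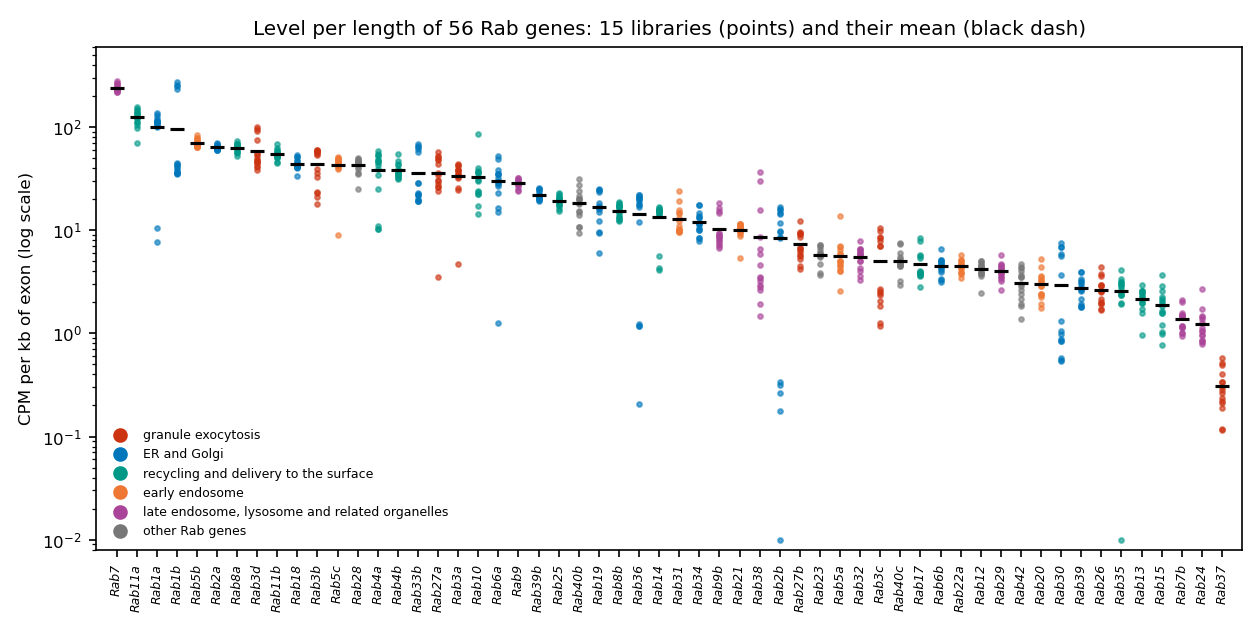
Level of 56 Rab genes in CPM per kb of annotated exon (log axis), ordered by mean; each point is 1 of 15 libraries, coloured by role, and the black dash is their mean (Rab33a, Rab43 and Rab44, under 1 CPM on average, are left out, and values at 0 are drawn at 0.01). Rab7 sat highest in a narrow band around 242.6 CPM per kb, while Rab1b and Rab2b split into separate clusters of libraries.

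Some Rab genes were steady and others split among libraries of 1 group. Rab2a differed within a group by at most 1.08-fold. Rab1b stood at 535.4 to 629.2 CPM in 4 libraries, PE+/- males 2 and 3 and PE+/- females 1 and 3, and at 80.2 to 103.0 CPM in the other 11. Rab1a was at 29.4 CPM in PE+/- male 1 and 39.95 CPM in PE+/- female 2, against 385.2 to 527.1 CPM in the other 13.

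Further genes of the ER and Golgi group split in the same manner, in other libraries. Rab2b was at 0 to 1.42 CPM in 5 libraries of all 4 groups and at 35.4 to 69.7 CPM in the other 10, and Rab30 at 5.24 to 12.7 CPM in 9 and 35.6 to 73.2 CPM in 6. Splits were not limited to this role: Rab14 of the recycling group was at 56.4 to 76.1 CPM in 3 libraries and 193.6 to 229.1 CPM in 12. Among genes with a mean of at least 10 CPM, 13 of 44 Rab genes (29.5%) differed at least 4-fold within a group, against 19.2% of all 9700 such genes. Outside the ER and Golgi group these were Rab27a (13.7-fold), Rab3c (8.91), Rab3a (8.06), Rab38 (7.88), Rab10 (5.94), Rab5c (5.39) and Rab4a (5.37). Of the 59 Rab genes, 11 overlap another protein-coding gene, Rab2b, Rab3a and Rab4a among them. Rab1a, Rab1b, Rab3c, Rab5c, Rab10, Rab14, Rab27a, Rab30 and Rab38 overlap none. Whether the splits came from how the counts were estimated was not tested.

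The first comparison asked which Rab genes differ with the loss of the remaining enhancer copy in males. Nr5a1 itself, the target of the deletion, was at 34.8 to 80.1 CPM in PE+/- males and 0 to 0.74 CPM in PE-/- males, which fits the labels (edgeR quasi-likelihood adjusted p = 0.0117). Of 56 Rab genes tested in males, 0 passed an adjusted p of 0.05 by edgeR quasi-likelihood, where 0.132% of all 17392 genes did. DESeq2 also called 0, against 0.976% of all genes. At an unadjusted p of 0.05, 5 of 56 passed, against 6.14% of all genes.

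The 3 genes left out of the test in males were Rab33a, Rab43 and Rab44, which were also left out with sex as a covariate and between the sexes in either genotype. In females and in the interaction Rab44 alone was left out. The median log2 fold change (PE-/- against PE+/-) of the Rab genes tested was 0.01, and that of all genes 0.00. Libraries of PE-/- and PE+/- males did not overlap for 2 of 56 Rab genes, against 4.55% of all genes. They were Rab19 and Rab32, both higher in PE-/- males. Rab32, which acts on lysosome-related organelles and mitochondria, was at 13.4, 13.4, 14.3 and 13.7 CPM in PE-/- males and at 11.83, 10.01, 7.68 and 11.89 CPM in PE+/- males. On the log2 scale the fold change, with its SE, was 0.40 ± 0.17 (edgeR quasi-likelihood adjusted p = 0.789).

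The lowest unadjusted p in males belonged to Rab38, a protein of melanosomes and other lysosome-related organelles. It was at 9.37, 10.5, 24.6 and 5.43 CPM in PE+/- males and at 4.14, 5.59, 2.34 and 4.61 CPM in PE-/- males. The groups overlapped by 1 library, PE+/- male 4. The log2 fold change was -1.58 ± 0.47 (edgeR quasi-likelihood adjusted p = 0.523). Rab1b had the most negative fold change at -1.82 ± 0.65 (edgeR quasi-likelihood adjusted p = 0.685), a value set by the high PE+/- males 2 and 3, and Rab7b, which returns late endosomal cargo to the Golgi, was at 0.53 ± 0.21 (edgeR quasi-likelihood adjusted p = 0.727).

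In females 3 of 58 Rab genes passed the test, where 1.05% of all 18085 genes did. Rab3d and Rab9b fell and Rab3b rose in PE-/- females. Of all genes 0.697% fell and 0.348% rose. At an unadjusted p of 0.05, 13 of 58 (22.4%) passed, against 16.1% of all genes. The median log2 fold change of the Rab genes was 0.01, against 0.00 for all genes. Nr5a1 was at 33.7 to 45.4 CPM in PE+/- females and 0.62 to 0.90 CPM in PE-/- females.

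Rab3d, a protein of the granules of exocrine and endocrine cells, was at 315.8, 425.8, 388.7 and 407.3 CPM in PE+/- females and at 178.1, 160.8 and 172.5 CPM in PE-/- females. Every PE-/- library was below every PE+/- library, and PE-/- females were also below all 4 PE+/- males (194.0 to 232.4 CPM). The fold change on the log2 scale came to -1.18 ± 0.14 (edgeR quasi-likelihood adjusted p = 0.0207). The same gene was at 187.4 to 218.1 CPM in PE-/- males, with a log2 fold change of -0.10 ± 0.11 (edgeR quasi-likelihood adjusted p = 0.974).

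Rab9b, a relative of the Rab9 that returns receptors from late endosomes to the Golgi, followed Rab3d closely. It was at 58.2, 61.2, 66.1 and 73.2 CPM in PE+/- females and at 27.8, 30.7 and 26.7 CPM in PE-/- females. The groups did not overlap, and the log2 fold change was -1.19 ± 0.14 (edgeR quasi-likelihood adjusted p = 0.0207). In males it was at 29.1 to 37.1 CPM in PE+/- and 32.2 to 35.1 CPM in PE-/- mice. Rab9 itself, named after its values were seen, was at 41.9 to 56.5 CPM in PE+/- females and 42.59 to 55.96 CPM in PE-/- females, ranges that overlapped almost fully.

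Rab3b, which acts at granules and synaptic vesicles and has long been known from anterior pituitary cells, moved the other way. It was at 115.3, 83.0, 62.8 and 74.7 CPM in PE+/- females and at 213.3, 201.4 and 213.4 CPM in PE-/- females. The groups did not overlap, and the PE-/- females lay within 1.06-fold of each other. The log2 fold change was 1.31 ± 0.21 (edgeR quasi-likelihood adjusted p = 0.0435). In males Rab3b was at 139.6 to 205.5 CPM in PE+/- and 80.3 to 207.7 CPM in PE-/- mice, which overlapped.

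**Figure D2:**
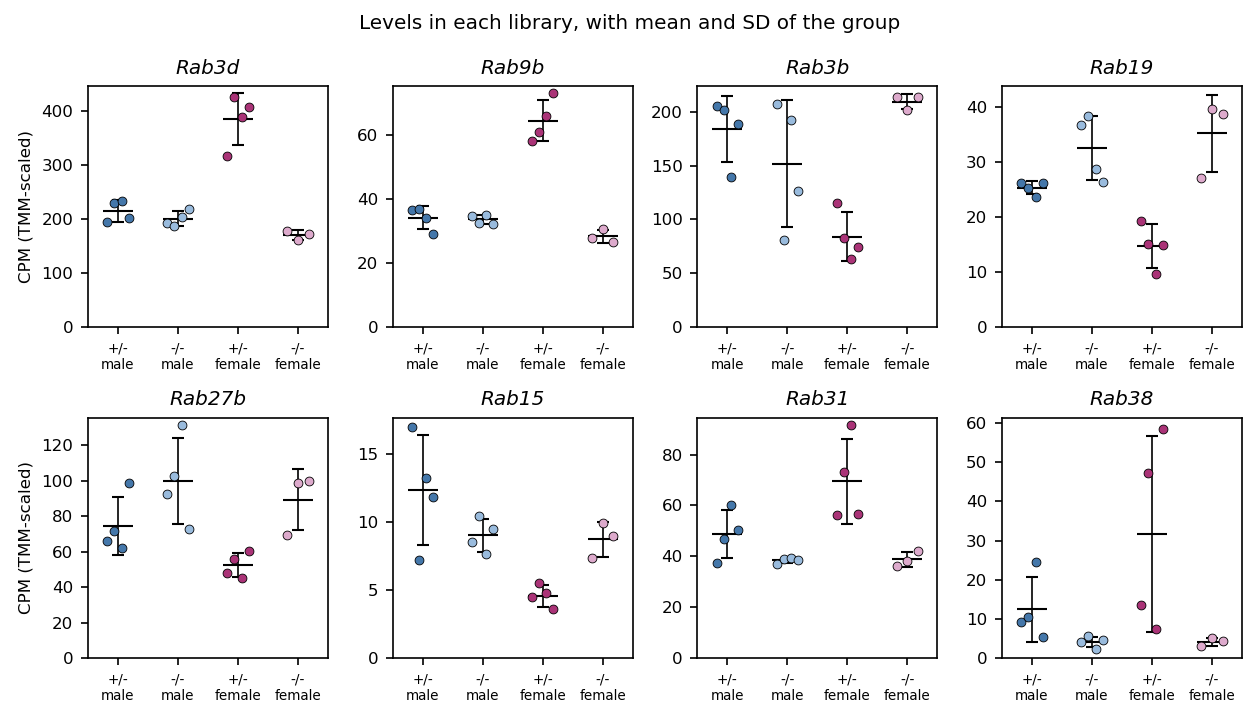
TMM-scaled CPM of 8 Rab genes in each library by genotype and sex, with the group mean and SD as bars. Rab3d and Rab9b stood highest and Rab3b lowest in PE+/- females, and PE-/- females (170.5 CPM on average for Rab3d) lay near both groups of males.

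The calls of all 3 genes were lost in fits that left out single libraries. Without PE+/- female 2 the edgeR quasi-likelihood adjusted p was 0.0623 for Rab3d, 0.0582 for Rab9b and 0.124 for Rab3b. Without PE-/- female 1, 2 or 3 it was 0.0691, 0.0974 and 0.105 for Rab3d, 0.0756, 0.0851 and 0.105 for Rab9b and 0.143, 0.157 and 0.173 for Rab3b. Rab3b also missed the threshold without PE+/- female 3 (edgeR quasi-likelihood adjusted p = 0.0731) or 4 (0.103). The fold changes themselves moved little, from -1.13 to -1.26 for Rab3d, -1.14 to -1.26 for Rab9b and 1.18 to 1.51 for Rab3b. With the replicate number as a block, all 3 calls were lost, where 0.00484% of all genes passed. The edgeR quasi-likelihood adjusted p was then 0.216 for Rab3d, 0.216 for Rab9b and 0.239 for Rab3b. DESeq2 called 11 of 59 Rab genes in females, against 6.05% of all genes.

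In bulk tissue fewer cells of a type and less RNA per cell cannot be told apart. Single cell type markers, or the sums of some of their lists, also differed by genotype in females. The lactotrope list (Prl and Drd2) summed to 21960 to 35110 CPM in PE+/- and 4486 to 5629 CPM in PE-/- females, where 1 of its 2 genes fell, Prl (log2 fold change -2.58 ± 0.21, edgeR quasi-likelihood adjusted p = 0.00698), while Drd2 averaged 27.7 ± 6.97 and 32.3 ± 1.11 CPM (SD, n = 4 and 3). Of 9 gonadotrope markers tested of 10 listed, 6 fell, and the list summed to 6027 to 8937 CPM against 2283 to 6956 CPM. Cga, which was not called, averaged 6406 of the list's 7616 CPM in PE+/- and 4966 of 5071 CPM in PE-/- females. The list holds Nr5a1, the target of the deletion. It also holds Fshb, Spp1, Tgfbr3l, Grem1, Nr0b1 and Nr0b2, which the study picked as lowered in PE-/- from the same series. Their fall was therefore partly set by how the list was made. The list of stem or folliculostellate cells summed to 64.2 to 94.7 CPM against 108.7 to 154.6 CPM with 0 of 5 genes called, and the posterior lobe list to 3.83 to 17.3 CPM against 0.39 to 2.81 CPM with 1 of 5 tested and Avp and Oxt at 0 in both groups. Of the lists for somatotropes, corticotropes, melanotropes, thyrotropes, endothelial, immune and erythroid cells, 0 genes were called in females. In males 4 of 9 gonadotrope markers tested fell and 0 of 2 lactotrope markers. The gonadotrope list summed to 9622 to 17040 CPM in PE+/- and 1384 to 6823 CPM in PE-/- males. For somatotropes (Gh and Ghrhr) the sums were 134100 to 186800 CPM and 65580 to 129600 CPM, with 0 of 2 genes called. With sex as a covariate 7 of 10 gonadotrope markers fell and 1 of 5 stem or folliculostellate markers rose. The part of these cells in the Rab values was not tested.

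Groups of females did not overlap for 16 of 58 Rab genes (27.6%), against 18.6% of all genes. Higher in every PE-/- library were Rab3b, Rab8b, Rab11b, Rab15, Rab19, Rab22a and Rab27b, and lower were Rab1b, Rab2a, Rab3d, Rab4b, Rab9b, Rab26, Rab31, Rab38 and Rab39b. Of the genes short of the threshold, Rab19, a less studied Rab of the Golgi, was at 19.3, 15.1, 9.57 and 14.8 CPM in PE+/- and 27.2, 39.8 and 38.8 CPM in PE-/- females. Its log2 fold change was 1.25 ± 0.26 (edgeR quasi-likelihood adjusted p = 0.0790).

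Genes of surface delivery and early endosomes lay on both sides in females. Rab15, a regulator of endosomal recycling, was at 4.53, 5.56, 4.79 and 3.60 CPM in PE+/- and 7.35, 9.92 and 9.01 CPM in PE-/- females, a log2 fold change of 0.91 ± 0.22 (edgeR quasi-likelihood adjusted p = 0.0995). Rab15 overlaps Fntb, so its reads may be shared with that gene. Rab31, which acts between the trans-Golgi and endosomes, was at 56.4, 73.2, 91.7 and 56.6 CPM in PE+/- and 36.4, 38.3 and 42.1 CPM in PE-/- females, a log2 fold change of -0.84 ± 0.21 (edgeR quasi-likelihood adjusted p = 0.103).

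The most abundant Rab genes gave small differences or wide errors in females. Rab7 was at 600.8 to 685.6 CPM in PE+/- and 594.0 to 689.2 CPM in PE-/- females, a log2 fold change of 0.01 ± 0.11. Rab5b gave -0.09 ± 0.11, Rab2a -0.14 ± 0.11, Rab11a 0.44 ± 0.20 and Rab1a 0.22 ± 0.69 on the same scale, with edgeR quasi-likelihood adjusted p from 0.348 for Rab11a to 0.989 for Rab7. Rab1b was at -2.04 ± 0.75 (edgeR quasi-likelihood adjusted p = 0.240), with PE+/- females 1 and 3 at 587.1 and 629.2 CPM and the other 5 female libraries at 82.1 to 103.0 CPM.

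The group of granule exocytosis showed how mixed the changes were. Of its 8 genes 1 rose (Rab3b), 1 fell (Rab3d) and 6 did not pass in females. Rab27b, which docks granules together with its effectors, was at 48.1, 55.7, 45.5 and 60.3 CPM in PE+/- and 69.50, 98.55 and 100.03 CPM in PE-/- females, a log2 fold change of 0.76 ± 0.18 (edgeR quasi-likelihood adjusted p = 0.0988). Its relative Rab27a was at 93.3 to 197.5 CPM and 117.2 to 222.3 CPM, which overlapped. Rab26, a Rab of secretory granules in gland cells, was at 7.42, 10.8, 10.2 and 12.6 CPM in PE+/- and 6.173, 5.561 and 5.601 CPM in PE-/- females, a log2 fold change of -0.83 ± 0.21 (edgeR quasi-likelihood adjusted p = 0.115). Rab26 overlaps Traf7.

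The other granule genes gave wide or small differences in females. Rab3a, the main Rab3 of synapses, was at 73.6 to 93.4 CPM in PE+/- and 71.1 to 95.6 CPM in PE-/- females, a log2 fold change of 0.07 ± 0.16 (edgeR quasi-likelihood adjusted p = 0.886). Rab3c ran from 28.5 to 119.5 CPM and from 14.1 to 126.8 CPM, a log2 fold change of 0.57 ± 0.79 (edgeR quasi-likelihood adjusted p = 0.805). Rab37 was at 1.796, 1.004, 1.795 and 1.402 CPM in PE+/- females and at 0.62, 1.17 and 2.76 CPM in PE-/- females, which overlapped, with a log2 fold change of 0.02 ± 0.54 (edgeR quasi-likelihood adjusted p = 0.992).

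Set per length, the 4 Rab3 genes changed places in PE+/- females, a view chosen after their values were seen. Rab3d made up 52.4%, 62.7%, 57.1% and 62.7% of the summed CPM per kb of the 4 genes in PE+/- females, while its share in PE-/- females was 31.2%, 26.9% and 26.5%. In males it made up 37.1% to 40.7% in PE+/- and 31.5% to 43.1% in PE-/- mice. Rab3b made up 10.97% to 22.78% in PE+/- females, 39.0% to 44.5% in PE-/- females, 29.1% to 49.5% in PE+/- males and 20.3% to 40.5% in PE-/- males.

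PE+/- females were therefore the only 1 of the 4 groups in which every library held more than 2 times as much Rab3d as Rab3b per kb, with ratios from 2.30 to 5.20. The ratio was 0.67 to 0.70 in PE-/- females, 0.79 to 1.40 in PE+/- males and 0.78 to 1.96 in PE-/- males. The sum of the 4 genes was 155.7 ± 8.71 CPM per kb in PE+/- females and 144.5 ± 9.70 in PE-/- females (SD, n = 4 and 3), which overlapped. In males it was 132.5 ± 12.6 and 133.1 ± 19.7 (SD, n = 4 and 4).

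**Figure D3:**
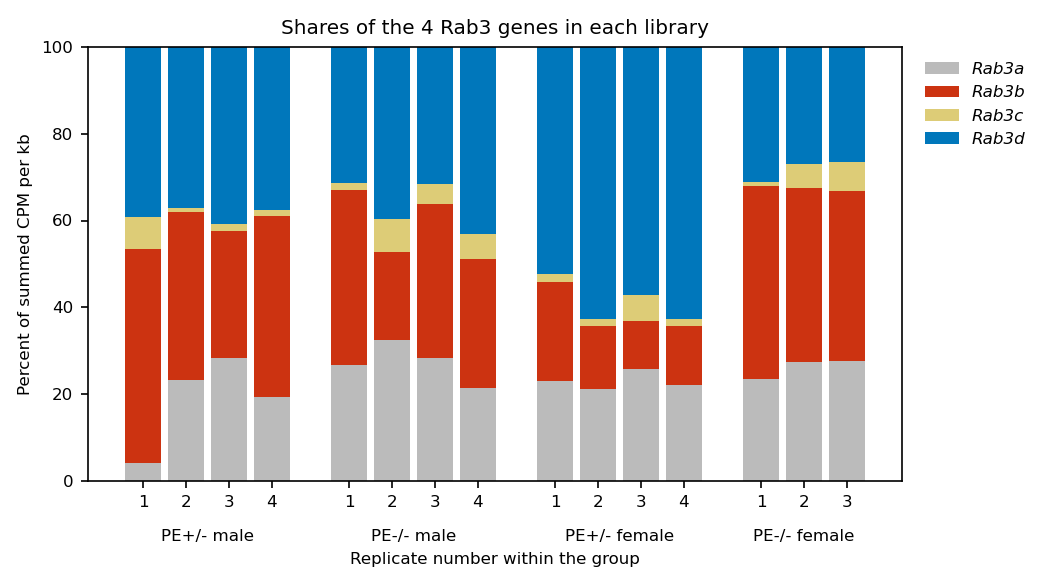
Share of Rab3a, Rab3b, Rab3c and Rab3d in the summed CPM per kb of the 4 genes in each library (stacked bars to 100 percent). Rab3d took the largest share in every PE+/- female library (52.4% to 62.7%), and Rab3b in every PE-/- female library (39.0% to 44.5%).

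A fit on all 15 libraries with sex as a covariate gave 1 estimate of the genotype difference over both sexes. Of 56 Rab genes 1 passed, Rab38, which was lower in PE-/- mice, against 1.17% of all genes called and 0.467% called lower. DESeq2 called 6 of 58, against 3.68% of all genes, and at an unadjusted p of 0.05 14 of 56 passed, against 13.1% of all genes. In females Rab38 was at 13.5, 47.2, 7.34 and 58.5 CPM in PE+/- and at 3.03, 5.07 and 4.42 CPM in PE-/- mice. PE-/- libraries of both sexes lay in a narrow range of 2.34 to 5.59 CPM, while PE+/- libraries ranged from 5.43 to 58.5 CPM. The log2 fold change with sex as a covariate was -2.19 ± 0.49 (edgeR quasi-likelihood adjusted p = 0.0441).

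That call was close to the threshold. It was kept without PE+/- male 1 or 4 and without PE+/- female 1 or 3, and it was lost without any of the other 11 libraries, at edgeR quasi-likelihood adjusted p from 0.0514 without PE-/- male 2 to 0.131 without PE-/- female 2. It was lost, too, with library totals in place of TMM factors (0.0543) and with no filter on low counts (0.0650). With the replicate number as a block it was also lost (edgeR quasi-likelihood adjusted p = 0.100). The next genes in this fit were Rab31 at -0.58 ± 0.14 (edgeR quasi-likelihood adjusted p = 0.0620) and Rab19 at 0.77 ± 0.19 (edgeR quasi-likelihood adjusted p = 0.0667). Rab27b was at 0.57 ± 0.15 (edgeR quasi-likelihood adjusted p = 0.0879). All 3 had the sign of both sexes taken alone.

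**Figure D4:**
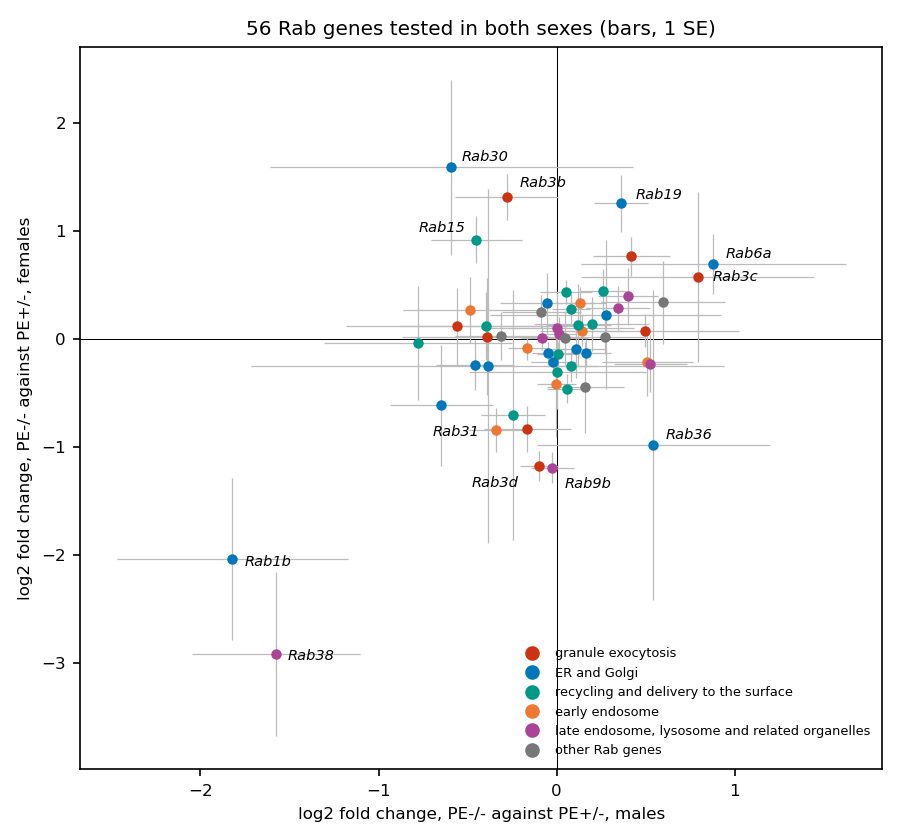
Log2 fold change of PE-/- against PE+/- for 56 Rab genes in males (horizontal) and females (vertical), with bars of 1 SE, coloured by role. Rab3d and Rab9b lay near 0 in males and at -1.18 and -1.19 in females, Rab3b at -0.28 and 1.31, and Rab38 and Rab1b were low on both axes with wide bars.

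Females and males were then compared within each genotype. In PE+/- mice 2 of 56 Rab genes passed, Rab3d and Rab9b, both higher in females, against 0.67% of all genes called and 0.414% called higher. DESeq2 called 6 of 59, against 4% of all genes, and 9 of 56 passed at an unadjusted p of 0.05, against 13.5% of all genes. The log2 fold change (females against males) was 0.84 ± 0.13 for Rab3d (edgeR quasi-likelihood adjusted p = 0.0340) and 0.92 ± 0.13 for Rab9b (edgeR quasi-likelihood adjusted p = 0.0280). This comparison and that of genotype in females share the PE+/- female libraries, so that the 2 sets of values are not independent. Both calls were kept without PE+/- female 1 and lost without any of the other 7 libraries, at edgeR quasi-likelihood adjusted p from 0.0753 without PE+/- female 3 for Rab9b to 0.125 without PE+/- male 4 for Rab3d. With no filter on low counts both were lost, at edgeR quasi-likelihood adjusted p = 0.0606 for Rab3d and 0.0532 for Rab9b. The replicate number as a block also removed both, at edgeR quasi-likelihood adjusted p = 0.228 for Rab3d and 0.275 for Rab9b.

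Groups of PE+/- mice did not overlap for 8 of 56 Rab genes, against 9.76% of all genes. Rab3d, Rab4b, Rab7b and Rab9b were higher in every female, and Rab3b, Rab15, Rab19 and Rab27b in every male. Rab15 was at 17.0, 7.23, 13.3 and 11.9 CPM in PE+/- males, with a log2 fold change of -1.41 ± 0.29 in females against males (edgeR quasi-likelihood adjusted p = 0.0811). For Rab3b it was -1.12 ± 0.22 (edgeR quasi-likelihood adjusted p = 0.0753). The somatotrope markers Gh and Ghrhr summed to 134100 to 186800 CPM in PE+/- males and 59330 to 104800 CPM in PE+/- females, with 0 of 2 genes called. The gonadotrope list summed to 9622 to 17040 CPM and 6027 to 8937 CPM, with 0 of 10 genes called. Cga alone averaged 8467 of the list's 12100 CPM in PE+/- males and 6406 of 7616 CPM in PE+/- females. The part of these markers in the Rab values was not tested.

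In PE-/- mice 0 of 56 Rab genes differed between the sexes by edgeR quasi-likelihood, against 0.0494% of all genes, and 0 by DESeq2, against 0.154%. At an unadjusted p of 0.05 1 passed, Rab20 of early endosomes and phagosomes, against 3.37% of all genes. Rab20 was at 4.043, 6.197, 7.303 and 4.606 CPM in PE-/- males and at 3.33, 2.44 and 4.38 CPM in PE-/- females, which overlapped. Groups did not overlap for 2 of 56 genes, against 5.24% of all genes, and these were Rab3d and Rab9b, now lower in every female. Their log2 fold changes were -0.23 ± 0.10 and -0.24 ± 0.11 (edgeR quasi-likelihood adjusted p = 0.997 for both).

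Rab23, which acts in cilia, was also among the 4 Rab genes with the smallest p here. It was at 30.4, 47.4, 50.4 and 46.1 CPM in PE-/- males and at 59.4, 49.1 and 60.3 CPM in PE-/- females, ranges that overlapped by 1 library, with a log2 fold change of 0.37 ± 0.19 (edgeR quasi-likelihood adjusted p = 0.997).

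The interaction of genotype and sex asked whether the genotype difference itself differed between the sexes. It did for 2 of 58 Rab genes, Rab3d and Rab9b, against 0.161% of all 19286 genes called and 0.114% called in this direction. DESeq2 called 4 of 59, against 1.78% of all genes, and 7 of 58 passed at an unadjusted p of 0.05, against 10.1%. The difference between the sexes in log2 fold change (females minus males) was -1.07 ± 0.17 for Rab3d (edgeR quasi-likelihood adjusted p = 0.0267) and -1.16 ± 0.17 for Rab9b (edgeR quasi-likelihood adjusted p = 0.0184). For Rab3b it was 1.598 ± 0.388 (edgeR quasi-likelihood adjusted p = 0.139) and for Rab15 1.37 ± 0.34 (edgeR quasi-likelihood adjusted p = 0.146), so that a difference between the sexes was not shown for these 2.

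Of the 2 interaction calls that of Rab9b was the firmer when single libraries were left out. It was lost without PE-/- female 1 (edgeR quasi-likelihood adjusted p = 0.0549) or 3 (0.0830) and kept without each of the other 13 libraries. Rab3d was kept without 7 of 15 libraries. It was lost without PE+/- male 4 (edgeR quasi-likelihood adjusted p = 0.0559), PE-/- male 3 (0.0614) or 4 (0.0714), PE+/- female 3 (0.0563) or 4 (0.0506), and PE-/- female 1 (0.0584), 2 (0.0550) or 3 (0.0830). With the replicate number as a block both calls were lost, at edgeR quasi-likelihood adjusted p = 0.0589 for Rab3d and 0.0605 for Rab9b.

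**Figure D5:**
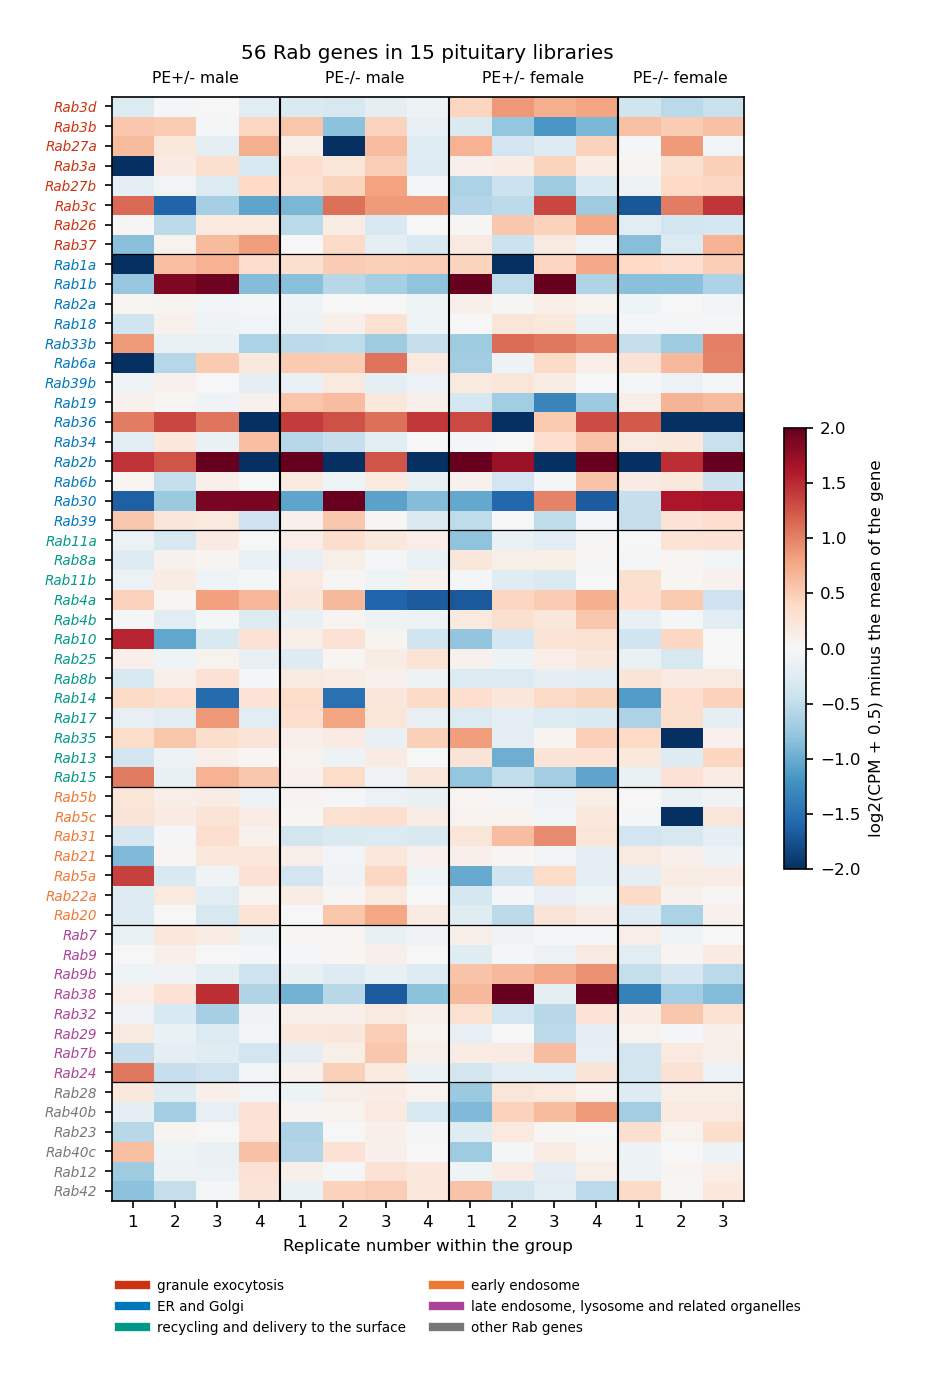
Level of 56 Rab genes in the 15 libraries as log2(CPM + 0.5) minus the mean of the gene over all libraries (scale cut at -2 and 2), grouped by role. Rab3d and Rab9b were above their mean in all 4 PE+/- female libraries and in none of the other 11, and Rab1b, Rab2b, Rab30 and Rab36 changed from library to library within groups.

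The genes that load, switch and read Rab proteins were looked at as a list of 87, all with a row in the table, made up of 7 for escort and delivery, 22 exchange factors, 22 GTPase activating proteins, 34 effectors and 2 kinases. By edgeR quasi-likelihood 0 passed in any of the 6 comparisons. At an unadjusted p of 0.05, 5 of 84 passed in males (6.14% of all genes), 14 of 85 in females (16.1%), 13 of 84 with sex as a covariate (13.1%), 14 of 84 between the sexes in PE+/- (13.5%), 3 of 86 in PE-/- (3.37%) and 13 of 86 in the interaction (10.1%). The median log2 fold change of the list was -0.08 in males and 0.15 in females, against 0.00 for all genes in both.

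Of this machinery, those nearest to the threshold in females were all higher in PE-/- mice. They were Rims3, of the family of Rab3 effectors at release sites, at 0.82 ± 0.16 (edgeR quasi-likelihood adjusted p = 0.0674), Tbc1d9, of the family of GTPase activating proteins, at 0.85 ± 0.18 (edgeR quasi-likelihood adjusted p = 0.0819), and the Rab11 effector Rab11fip4 at 0.58 ± 0.14 (edgeR quasi-likelihood adjusted p = 0.0985). In males Dennd2c, an exchange factor, was at -1.48 ± 0.34 (edgeR quasi-likelihood adjusted p = 0.292) and Sytl2, an effector of Rab27 on granules, at -2.40 ± 0.60 (edgeR quasi-likelihood adjusted p = 0.357). None of these differences passed the test.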

How the data were processed

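RNA from whole pituitary glands was sequenced from low-input libraries. Per the labels and the study's methods, the authors used cutadapt, STAR, featureCounts and mm10 (GRCm38). The deposited values were whole-number counts, not normalized. Of the Rab entries 58 carry the name of an assembled locus and 1 an Ensembl ID. The values 5, 9 and 13 were 1.52, 1.16 and 1.08 times as frequent as the mean of their neighbours. From this spacing about 4 counts were taken to stand for 1 fragment. The step behind these names and this spacing and the annotation release are not given in the sources used here. Reads of overlapping or antisense genes and of near-identical copies may therefore be shared, and 6 Rab loci have more than 1 entry. Columns were assigned to samples through their names. Lengths and positions came from GENCODE M21, promoters from RefSeq.

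Tests were run in R 4.3.3 with edgeR 4.0.16 on the libraries compared (filterByExpr with a minimum count of 10 and total of 15, TMM factors, quasi-likelihood F test, Benjamini-Hochberg adjustment over all genes tested, threshold 0.05). The SE was taken from the fold change and F. The common biological coefficient of variation was 41.3% to 46.9%. Every pair of replicates differed beyond sampling noise. Labels only number the replicates, so p-values measure the spread between these samples, which may be technical. Alternatives were DESeq2 1.42.0, its size factors, library totals, the likelihood ratio test, no filter, a filter of 1 CPM, summed entries of a symbol, counts divided by 4, 1 fit on 15 libraries, a replicate block and leaving out each library. Scripts were tested on simulated data. There, 7.84% of the genes set to differ by 1 on the log2 scale were recovered in males and 1.03% in females. Of genes set to differ by 2, 72.5% were recovered in males and 42.7% in females. Most differences of the smaller size were thus missed, and a lack of calls does not show a lack of difference. Recovery in the other comparisons was not tested. The members and all lists were chosen with earlier results of these data known. Named were Rab genes past the threshold and the 4 with the smallest p of each comparison. The 8 granule genes, the 6 highest per kb and the lowest tested per kb were added. Of the machinery, none of which passed, genes among the 3 with the smallest p were named for females and males only. Other genes named, and the Rab3 shares, were chosen after values were seen.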

Additional observations from a re-analysis of the deposited data

Results flagged for a closer look

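In 4 of 72 groups of 4 libraries looked at over the named Rab genes, 1 library stood apart from the others of its group by more than Dixon's 95% limit, where chance gives about 1 in 20. Rab3c was at 103.8 CPM in PE+/- male 1 against 15.2 to 29.6 CPM in the other 3 PE+/- males, and at 119.5 CPM in PE+/- female 3 against 28.5 to 32.6 CPM in the other PE+/- females. PE+/- female 3 was also apart for Rab3a, at 93.4 CPM against 73.6 to 76.2 CPM. Rab43, among the lowest of the Rab genes, was at 1.09 CPM in PE+/- female 2 against 0.39 to 0.49 CPM in the others. The genotype difference was not the same in both sexes for a pair of genes by the test of the interaction, with a difference in log2 fold change (females minus males) of -1.07 for Rab3d and -1.16 for Rab9b.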

How the results depend on the processing

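Of the values that 45 reported fold changes of Rab genes took under the alternatives, 721 kept their direction and their side of the threshold, 61 kept the direction but missed the threshold, 34 kept the direction and newly passed it, and 18 had the other sign. The sign changed for 6 fold changes, none of which was called. Rab9b in males was at 0.061 with library totals and at -0.095 to 0.016 when 1 library was left out. In females Rab7 was at -0.0031 with a filter of 1 CPM, at -0.010 with counts divided by 4 and at -0.047 to 0.052 when 1 library was left out. Leaving out 1 library gave -0.15 to 0.47 for Rab1a, -0.27 to 0.33 for Rab27a, -0.72 to 0.39 for Rab37 and -0.019 to 0.19 for Rab3a, all in females. Over all 140 fold changes of the named genes, 35 changed sign under some alternative, with adjusted p of at least 0.875 as reported and at least 0.68 under the alternative (edgeR quasi-likelihood or the alternative's own test).

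Of the counts of Rab genes past the threshold and the median per length, 70 values stayed within 1.5 times (or 1 SD) and 49 moved. DESeq2 called 11 in females, 6 with sex as a covariate, 6 between the sexes in PE+/- and 4 in the interaction. The likelihood ratio test called 6 of 58 in females (3.93% of all genes), 4 of 56 with sex as a covariate (2.1%) and 4 of 56 between the sexes in PE+/- (2.46%). The fit on 15 libraries called 6 of 58 in females (3.7% of all genes) and 5 of 58 between the sexes in PE+/- (2.18%). Counts divided by 4 gave 2 of 55 with sex as a covariate (1.76% of all genes). With no filter on low counts 0 were called with sex as a covariate (0.484% of all genes) and 0 between the sexes in PE+/- (0.229%). Leaving out 1 library gave 0 to 3 calls in females, 0 to 2 with sex as a covariate, 0 to 3 between the sexes in PE+/- and 0 to 2 in the interaction. The median Rab gene stood at 14.27 CPM per kb of the longest coding transcript. The cause of these shifts was not tested.

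With the replicate number as a block, 0 Rab genes were called in females (0.00484% of all genes), 0 with sex as a covariate (0.456%), 0 between the sexes in PE+/- (0% of all genes) and 0 in the interaction (0.0546%), and Rab37 in females was at -0.17. Correlations of deviations between samples with the same number ran from -0.08 to 0.13. Between PE+/- and PE-/- females they were 0.13 and 0.09 for numbers 1 and 2, against at most -0.02 and -0.04 with other numbers. For number 3 the value was -0.05, against at most 0.06. Between the sexes in PE-/- mice number 2 gave 0.11, against at most -0.01 with other numbers. Library totals were highest for number 2 and next highest for number 3 in every group. The labels say nothing of what a number shares, so the numbers were not taken as a pairing in the main fits. Whether samples of the same number were handled together was not tested. Depth limits Rab33a, Rab43 and Rab44, whose values rest on few fragments.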
